A study of Mus musculus with 6 samples.

Results

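CC chemokine ligands are small secreted proteins that attract leukocytes, and 8 of their genes that are transcribed in macrophages were examined here, namely *Ccl2*, *Ccl3*, *Ccl4*, *Ccl5*, *Ccl6*, *Ccl7*, *Ccl9* and *Ccl12*. The genes were taken by symbol from a fixed list with no threshold on their measured change, but earlier results of these data were known when it was chosen. All 8 were among the 15903 genes tested of the 57010 annotated genes counted. Bone-marrow-derived macrophages (BMDMs) were grown from the marrow of Cx3cr1GFP mice on a C57BL/6J background with 10 ng/ml of the growth factor M-CSF. They were left unstimulated (control, n = 3) or exposed to 62 mM excess NaCl for 24 h (NaCl, n = 3). Libraries of the 2 groups with the same mouse number were taken to come from the same mouse, which gives 3 mice. All 6 libraries, controls included, carry the GFP sequence in the *Cx3cr1* locus. Only adherent cells, detached with EDTA, were sequenced, and the question was which transcripts of macrophages change in excess salt. Secreted protein was not measured.

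The ligands are named for a pair of adjacent cysteines near the start of the mature protein. They bind receptors that couple to G proteins on monocytes, macrophages, lymphocytes and granulocytes. CCL2, CCL7 and CCL12 act on CCR2 and draw monocytes out of the bone marrow and into inflamed tissue, CCL3, CCL4 and CCL5 draw macrophages, T cells and NK cells to inflamed sites, and CCL6 and CCL9, which rodents have and humans lack under these names, act on CCR1. Macrophages transcribe several of these genes at rest and raise them strongly when Toll-like receptors or cytokine receptors signal through NF-κB.

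All 8 genes lie on chromosome 11 in 2 groups. In the GENCODE annotation of the build GRCm38, *Ccl2* (chr11:82035571-82037453), *Ccl7* (chr11:82045712-82047525) and *Ccl12* (chr11:82101845-82103400) are on the plus strand, and 8.3 kb separate *Ccl2* from *Ccl7*. The other group begins 1422.4 kb further on with *Ccl5* (chr11:83525778-83530518), *Ccl9* (chr11:83572919-83578636), *Ccl6* (chr11:83587882-83593087) and *Ccl3* (chr11:83647844-83649355) on the minus strand and ends with *Ccl4* (chr11:83662584-83664683) on the plus strand. The coding stretch of 30 bases around the adjacent cysteine codons is given for 7 of the 8 genes to show what the family shares and where its members differ, with those codons in capitals, written 5′ to 3′ on the coding strand and read from the GENCODE transcripts.
Ccl2, ENSMUSG00000035385.6, chr11:82036494-82036523, exon 2 of 3: gccccactcaccTGCTGCtactcattcacc
Ccl7, ENSMUSG00000035373.3, chr11:82046526-82046555, exon 2 of 3: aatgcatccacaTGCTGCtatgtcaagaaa
Ccl12, ENSMUSG00000035352.4, chr11:82102622-82102651, exon 2 of 3: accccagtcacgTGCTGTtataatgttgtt
Ccl4, ENSMUSG00000018930.4, chr11:83663470-83663499, exon 2 of 3: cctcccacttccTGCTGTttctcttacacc
Ccl5, ENSMUSG00000035042.3, chr11:83529230-83529259, exon 2 of 3: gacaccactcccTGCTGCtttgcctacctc
Ccl6, ENSMUSG00000018927.4, chr11:83589374-83589403, exon 3 of 4: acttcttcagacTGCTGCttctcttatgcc
Ccl9, ENSMUSG00000019122.9, chr11:83575914-83575943, exon 3 of 4: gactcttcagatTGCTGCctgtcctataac

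Over whole coding sequences, aligned end to end with gaps counted as differences, *Ccl3* and *Ccl4* were the most alike pair at 68.1% identity, followed by *Ccl6* and *Ccl9* at 64.6% and *Ccl7* and *Ccl12* at 63.2%. *Ccl2* and *Ccl7*, the closest neighbours on the chromosome, shared 46.2%. Their coding sequences have 444 and 291 bases, and this difference in length by itself lowers the identity. Nevertheless, 0% of the 75-base windows of the transcripts of the 8 genes occur unchanged in the transcripts of another gene. None of their exons overlaps another gene. Near matches and reads trimmed to less than 75 bases were not examined.

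The reads counted on genes ranged from 8520433 to 20123570 per control library and from 4088065 to 11610020 per NaCl library, with the fewest in NaCl replicate 3. All 9 macrophage markers, *Adgre1* and *Csf1r* among them, were detected, with a summed level of 15310 to 16650 CPM (read counts of a gene relative to the TMM-scaled total of its library) in control and 23980 to 31640 CPM in NaCl, most of it from *Lyz2*. *Lyz2* and *Cd14* were called higher in edgeR without the block, *Csf1r* was called higher with it, and *Mertk* lower with it. Of 8 T and NK cell markers, which matter here because those cells transcribe *Ccl5*, only *Klrb1c* reached a total of 10 reads, at 1.02 to 1.26 and 2.08 to 2.35 CPM, and 4 of the other 7 had no read in any library. The summed level of 6 monocyte markers was 105 to 226 CPM in control against 95.4 to 291 CPM in NaCl, most of it from *Ccr2*, while *Ifitm6* rose from 2.61 ± 0.211 to 28.3 ± 18.2 CPM (adjusted p = 0.00997 in edgeR's test). That of 9 neutrophil markers was 202 to 431 and 214 to 322 CPM, with *Mpo* and *Ngp* called lower with the block, and that of 7 dendritic cell markers 4.09 to 4.80 and 2.81 to 3.69 CPM. Their part in the results below was not tested. In these bulk libraries, fewer cells that transcribe a gene and less RNA per cell cannot be told apart.

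Of the 8 CC chemokine ligands, *Ccl7* was the only one whose NaCl and control libraries did not overlap. The level of *Ccl7* averaged 23.4 ± 6.28 CPM in control and 9.69 ± 4.11 CPM in NaCl (SD, n = 3 each), and it was lower in NaCl in 3 of 3 mice. In edgeR's quasi-likelihood test of NaCl against control, with Benjamini-Hochberg adjustment over all 15903 genes and a threshold of 0.05, 0 of the 8 ligands passed, where 0.654% of all genes did and 0.176% did so as lower in NaCl. At an unadjusted p-value under 0.05 stood 1 of the 8, *Ccl7*, and 12.6% of all genes. A second fit had a term for the mouse, called the replicate block here. The same mouse numbers stand in both groups and were taken to mean the same mice. In that fit 1 of the 8, *Ccl7*, passed as lower, where 8.9% of all genes passed and 4.3% did so as lower, and 3 of the 8 were under 0.05 without adjustment, where 22.1% of all genes were. *Ccl7* alone was also called by DESeq2, against 2.52% of all genes without the block (0.975% as lower) and 5.07% with it (2.23% as lower).

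**Figure D1:**
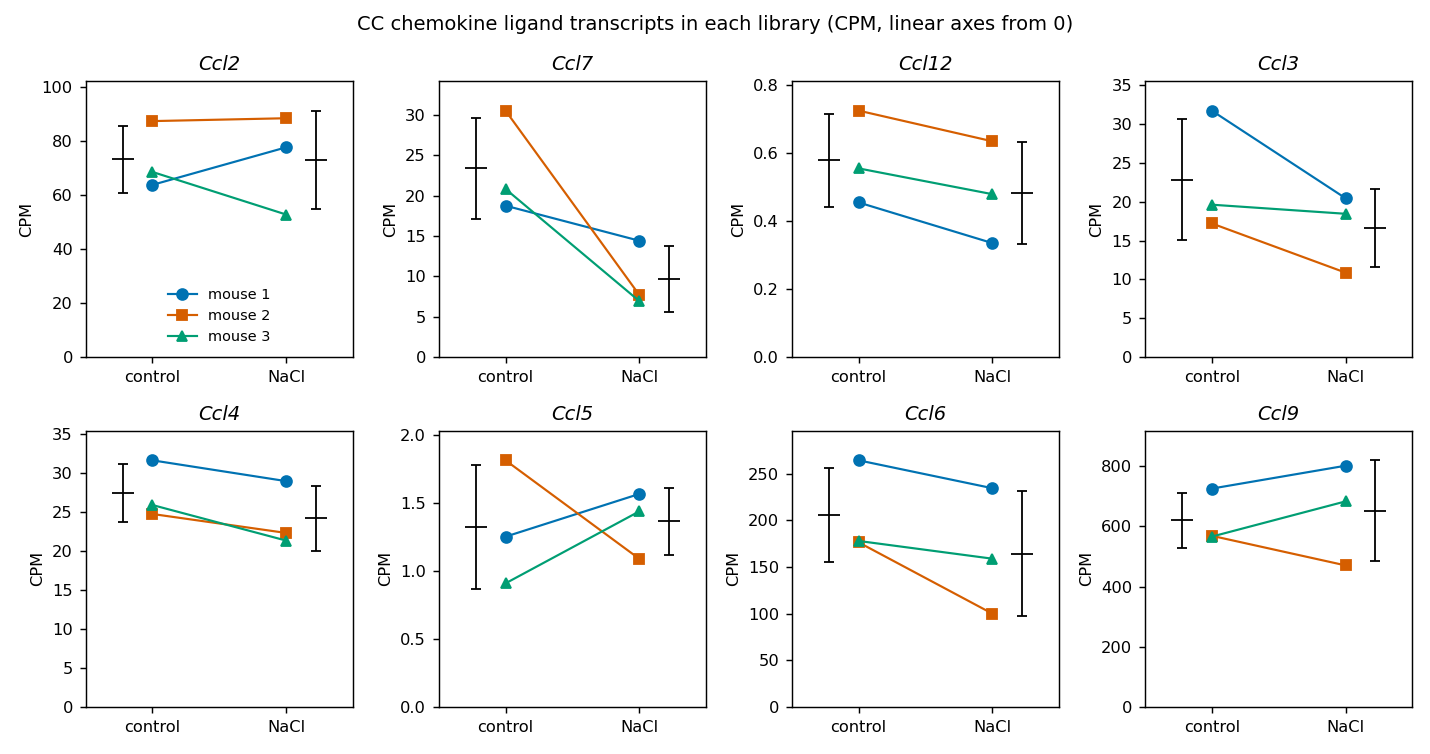
Level of each CC chemokine ligand in CPM (vertical axes, linear, starting at 0) in the libraries of both groups, with a line joining those of 1 mouse and black bars giving mean ± SD of 3 libraries. The NaCl values of Ccl7, from 6.95 to 14.4 CPM, lie below all its control values, whereas the groups overlap for the other 7 genes.

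Among the ligands of CCR2, *Ccl2*, also known as MCP-1 and the main attractant of classical monocytes, was at 63.7, 87.2 and 68.5 CPM in control and at 77.5, 88.3 and 52.7 CPM in NaCl for mice 1, 2 and 3. Its groups overlapped fully, with NaCl above control in mouse 1, nearly equal in mouse 2 and below in mouse 3. The log2 fold change from edgeR was 0.0037 with a standard error of 0.20 and a 95% interval from -0.44 to 0.45 (adjusted p = 0.998 in edgeR's test), and with the replicate block the interval narrowed to -0.28 to 0.25.

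*Ccl7*, also known as MCP-3, attracts monocytes through CCR2 and binds CCR1 and CCR3 as well. It was at 18.8, 30.5 and 20.8 CPM in the control libraries of mice 1, 2 and 3 and at 14.4, 7.71 and 6.95 CPM in their NaCl libraries, which rest on 129, 85 and 29 reads. All NaCl values were lower than all control values, a pattern that 10.1% of all genes tested showed in that direction. The log2 fold change was -1.24 with a standard error of 0.29 and a 95% interval from -1.89 to -0.59 (adjusted p = 0.11 in edgeR's test). With the replicate block *Ccl7* fell by 1.28 on the log2 scale, with an interval of the change from -1.72 to -0.85 (adjusted p = 0.000177 in edgeR). That fit took the variation of each gene largely from other genes. Its interval and p-value therefore do not measure the spread of *Ccl7* between mice. The DESeq2 estimate without a mouse term was -1.24 (adjusted p = 0.00456).

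The difference in *Ccl7* was uneven between mice. Within mouse 1 the log2 ratio of NaCl to control was -0.38, with an exact binomial 95% interval from -0.72 to -0.039. It was -1.99 (-2.35 to -1.64) in mouse 2 and -1.58 (-2.18 to -1.04) in mouse 3, where the intervals cover counting error only. The interval of mouse 1 did not meet those of mice 2 and 3. With both libraries of mouse 1 left out, the blocked log2 fold change of *Ccl7* was -1.81, and without mouse 2 it was -0.82. *Ccl7* passed the threshold in each of the 3 blocked fits that left out 1 mouse. With so few libraries, those fits took the variation of each gene from a trend over all genes. Their p-values therefore do not measure the spread of *Ccl7* between mice.

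*Ccl12*, or MCP-5, a further ligand of CCR2, was close to the limit of detection, with 4, 8 and 11 reads in control and 3, 7 and 2 reads in NaCl. These correspond to 0.455, 0.725 and 0.555 CPM in control and to 0.335, 0.635 and 0.479 CPM in NaCl. The 95% interval of its log2 fold change ran from -1.38 to 0.91, so a change of the size seen in *Ccl7* could not be told from no change at this depth.

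The count ratio of 2 genes within a library does not depend on the scaling between libraries, and it is given for 3 pairs of neighbours as a description, with no test, since the pairs were chosen after the values were known. The reads of *Ccl7* amounted to 0.295, 0.350 and 0.304 of those of *Ccl2* in the control libraries and to 0.186, 0.0873 and 0.132 in the NaCl libraries of mice 1, 2 and 3. The ratio was lower in NaCl in 3 of 3 mice and the groups did not overlap. Its mean was 0.316 ± 0.0295 in control and 0.135 ± 0.0494 in NaCl (SD, n = 3 each), a log2 difference of -1.29.

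**Figure D2:**
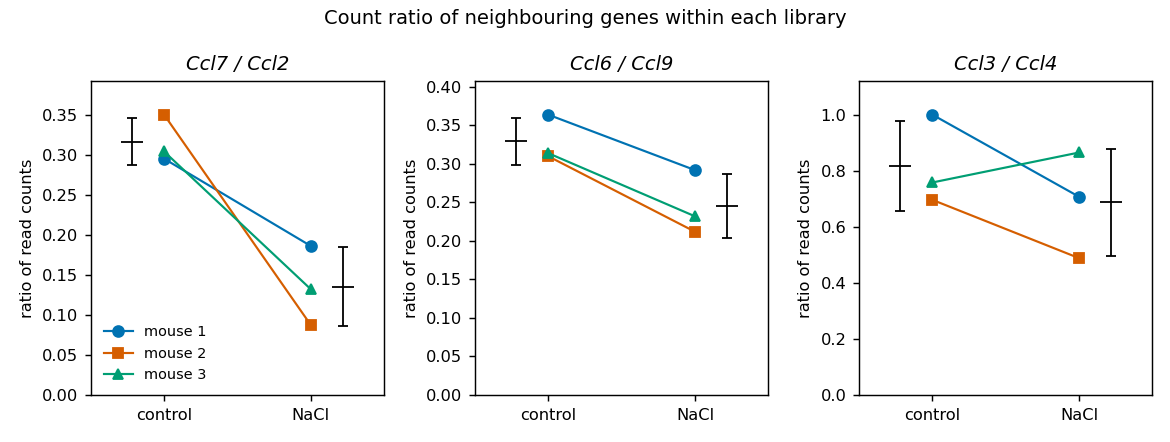
Ratio of the read counts of neighbouring CC chemokine genes within each library (vertical axes, linear, starting at 0), with a line for each mouse and black bars giving mean ± SD of 3 libraries. Ccl7 to Ccl2 and Ccl6 to Ccl9 were lower in NaCl in 3 of 3 mice, whereas Ccl3 to Ccl4 was lower in 2 of 3.

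*Ccl3*, *Ccl4* and *Ccl5* showed smaller differences. *Ccl3* (ENSMUSG00000000982.6), or MIP-1α, which recruits macrophages, T cells and granulocytes, was at 31.7, 17.2 and 19.6 CPM in control and at 20.4, 10.9 and 18.4 CPM in NaCl for mice 1, 2 and 3. It was lower in NaCl in 3 of 3 mice, but the groups overlapped, and mouse 1 was higher than the others in both groups. The log2 fold change was -0.47 with a standard error of 0.29 and an interval from -1.11 to 0.17 (adjusted p = 0.551 in edgeR's test), and it ranged from -0.17 without control replicate 1 to -0.68 without NaCl replicate 1. With the replicate block it was -0.48 with an interval from -0.80 to -0.16, and the adjusted p of 0.0543 in edgeR stayed above the threshold.

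*Ccl4*, or MIP-1β, an attractant of macrophages and T cells whose gene lies 13.2 kb from *Ccl3*, was at 31.6, 24.7 and 25.9 CPM in control and at 28.9, 22.3 and 21.3 CPM in NaCl. The values were lower in NaCl in 3 of 3 mice by a small amount, with a log2 fold change of -0.17 (interval -0.56 to 0.22, adjusted p = 0.735 in edgeR's test). The count ratio of *Ccl3* to *Ccl4* was 0.819 ± 0.163 in control and 0.686 ± 0.190 in NaCl, and it was lower in 2 of 3 mice. The ratio overlapped between the groups.

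*Ccl5*, or RANTES, which T cells, NK cells and activated macrophages make, had 11, 20 and 18 reads in control and 14, 12 and 6 reads in NaCl. At 1.25, 1.81 and 0.908 CPM against 1.56, 1.09 and 1.44 CPM the groups overlapped, and 2 of 3 mice were higher in NaCl. The log2 fold change of 0.06 had an interval from -0.84 to 0.95, and no difference was detectable at this depth.

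*Ccl6* and *Ccl9* were the most abundant of the 8 genes, and together they took between 81.3% and 89.3% of the reads of the family in each library. *Ccl6*, or MRP-1, was at 264, 176 and 178 CPM in control and at 234, 99.9 and 159 CPM in NaCl for mice 1, 2 and 3. It was lower in NaCl in 3 of 3 mice, most in mouse 2, with a log2 fold change of -0.33 (interval -0.95 to 0.30, adjusted p = 0.68 in edgeR's test). It ranged from -0.06 without NaCl replicate 2 to -0.68 without NaCl replicate 1, with none of the 6 fits that left out 1 library past the threshold. With the replicate block the log2 fold change was -0.38 with an interval from -0.65 to -0.12 (adjusted p = 0.0634 in edgeR).

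*Ccl9*, or MRP-2, a ligand of CCR1 that osteoclasts and myeloid cells also make, was at 726, 569 and 566 CPM in control and at 802, 471 and 683 CPM in NaCl. It was higher in NaCl in mice 1 and 3 and lower in mouse 2, and its log2 fold change was 0.07 (interval -0.37 to 0.51, adjusted p = 0.924 in edgeR's test). Reads of *Ccl6* amounted to 0.364, 0.310 and 0.314 of those of *Ccl9* in control and to 0.292, 0.212 and 0.232 in NaCl. This ratio did not overlap between the groups and was lower in 3 of 3 mice, with a log2 difference of -0.43.

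**Figure D3:**
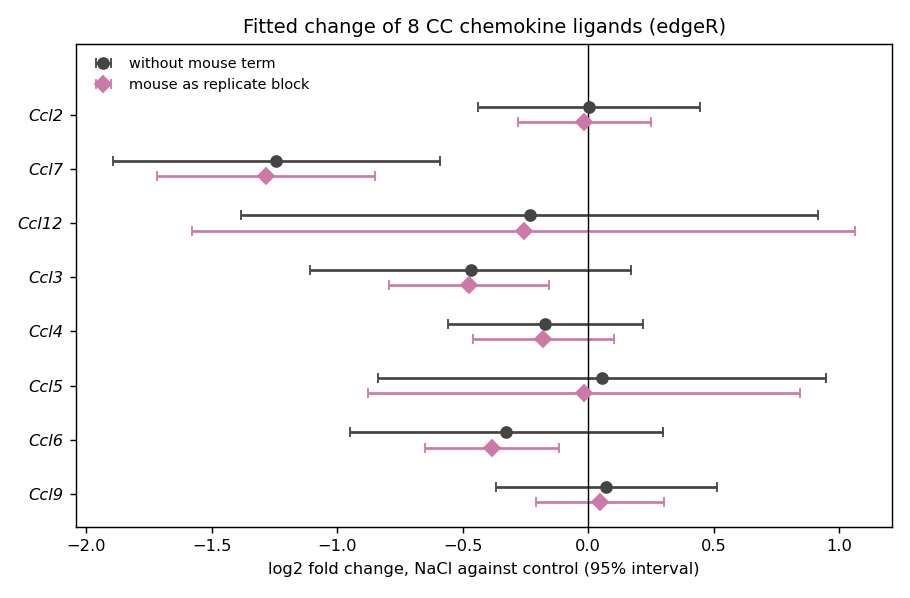
Log2 fold change of the 8 CC chemokine ligands in NaCl against control (horizontal axis) with 95% intervals, from edgeR without a mouse term (grey circles) and with the replicate block (pink diamonds). The interval of Ccl7 lies below 0 in both fits, those of Ccl3 and Ccl6 do so only with the block, and those of the other 5 genes include 0 in both.

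Taking the family as a whole, 5 of the 8 (*Ccl3*, *Ccl4*, *Ccl6*, *Ccl7* and *Ccl12*) had lower values in NaCl in 3 of 3 mice and 0 were higher in 3 of 3, where 23.4% of all genes tested were lower in 3 of 3 mice. The median log2 fold change of the 8 genes was -0.20, against -0.0065 over all genes. The summed level of the 8 genes was 1140, 908 and 880 CPM in control and 1180, 701 and 944 CPM in NaCl for mice 1, 2 and 3. This sum, which *Ccl9* and *Ccl6* dominate, overlapped between the groups.

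The variation of these genes was also divided between mouse and treatment, as a description. Of the sum of squares of log2 CPM over the 6 libraries, the mouse accounted for 65.5% in *Ccl3*, 75.3% in *Ccl4*, 69.8% in *Ccl6* and 78.8% in *Ccl9*, and the treatment for 26.0%, 21.8%, 18.5% and 0.832%. In *Ccl7* the treatment accounted for 73.9% and the mouse for 6.32%. The mouse share exceeded the treatment share in 7 of the 8 genes, over 2 degrees of freedom for the mouse and 1 for the treatment. The larger number of degrees of freedom favours the mouse even where neither has an effect. The share of all genes where this holds was not computed, so the count is not a result about the ligands. The 7 include *Ccl5* and *Ccl12*, which had few reads. *Ccl3*, *Ccl4*, *Ccl6* and *Ccl9* were highest in mouse 1 in both groups, as were 21.6% of all genes tested. *Ccl2*, *Ccl5*, *Ccl7* and *Ccl12* were highest in mouse 2 in control.

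Levels of different genes are compared here only per length, as CPM per kb of annotated exon. In control the order was *Ccl9* (204, with a range of 186 to 238), *Ccl6* (115 ± 28.0), *Ccl2* (64.3 ± 10.9), *Ccl4* (41.5 ± 5.58), *Ccl3* (29.8 ± 10.1), *Ccl7* (29.2 ± 7.84), *Ccl5* (1.38 ± 0.475) and *Ccl12* (1.08 ± 0.254). The library values of *Ccl4* and *Ccl3* overlapped, as did those of *Ccl3* and *Ccl7* and those of *Ccl5* and *Ccl12*, while *Ccl9*, *Ccl6*, *Ccl2* and *Ccl4* did not overlap each other in that order. In NaCl the order was the same, with *Ccl9* at 214 ± 55.2, *Ccl6* at 91.6 ± 37.5, *Ccl2* at 64.0 ± 16.0, *Ccl4* at 36.6 ± 6.28, *Ccl3* at 21.7 ± 6.59, *Ccl7* at 12.1 ± 5.13, *Ccl5* at 1.42 ± 0.257 and *Ccl12* at 0.899 ± 0.279 CPM per kb. There *Ccl6* overlapped *Ccl2*, and *Ccl4* no longer overlapped *Ccl3*. The order was also the same with the length of the coding transcript in place of all annotated exons.

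The genes whose log2 CPM followed each ligand most closely over the 6 libraries were sought among 9841 genes with a mean of at least 5 CPM. They were *Slc25a17* (Pearson's r = 0.99) and *Cyb561d1* (0.989) for *Ccl7*, *Apeh* and *Bpgm* for *Ccl2*, *Susd6* and *Rgs10* for *Ccl3*, *Dusp22* and *Tbc1d4* for *Ccl4*, *Arl4a* and *Prpf38a* for *Ccl5*, *Cflar* and *Tmem106b* for *Ccl6*, *Ccdc117* and *Exoc6* for *Ccl9*, and *Htt* and *Ptpn11* for *Ccl12*. These coefficients, from 0.898 to 0.9995, are the highest of 9841 for each ligand over 6 points, which the genes share as libraries, and they are given as a description. Between the ligands themselves the highest coefficient was 0.939, for *Ccl3* and *Ccl6*, while *Ccl7* and *Ccl2* had 0.333.

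The remaining CC ligands were rare in these cells. Of 13 others, 7 stayed under a total of 10 reads, 6 of which had 0 reads in all 6 libraries. The 6 that were tested were *Ccl17*, *Ccl22*, *Ccl24*, *Ccl25*, *Ccl27a* and *Ccl28*. They summed to between 10.1 and 13.1 CPM in control and between 11.4 and 19.4 CPM in NaCl. Of them 0 passed the threshold without or with the block, where 0.654% and 8.9% of all genes did. At an unadjusted p-value under 0.05 were 0 without and 1 with the block, where 12.6% and 22.1% of all genes were. DESeq2 also called 0, but gave no adjusted p for *Ccl17* and *Ccl24*.

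On the receptor side, *Ccr1*, whose product binds CCL3, CCL5, CCL6, CCL7 and CCL9, fell in NaCl. It was at 54.2, 54.0 and 51.4 CPM in control and at 27.5, 15.8 and 28.0 CPM in NaCl for mice 1, 2 and 3. The groups did not overlap, as in 10.1% of all genes tested in that direction. The log2 fold change of *Ccr1* was -1.18 with a standard error of 0.21 (adjusted p = 0.0455 in edgeR's test and 4.4e-06 with the replicate block). Without the block the call was lost in 5 of 6 fits that left out 1 library (adjusted p from 0.05 to 0.297 in edgeR), all but that without NaCl replicate 1. It was also lost with filterByExpr (adjusted p = 0.0515 in edgeR) or total count scaling (0.0636). With the block the call was kept in 3 of 3 fits that left out 1 mouse. Those 3 fits took the variation from a trend over all genes, and the blocked fit of all libraries took it largely from other genes. None of these blocked fits therefore measures the spread of *Ccr1* between mice. Of 14 genes of CC receptors and decoy receptors, 9 were tested, of which *Ccr1* alone passed without the block, where 0.654% of all genes did. With the block 8.9% of all genes passed. With the block *Ccrl2*, a receptor-like gene whose product binds chemerin, passed as well, with 8.29 ± 0.687 CPM in control and 13.1 ± 0.125 CPM in NaCl (adjusted p = 0.0139 in edgeR with the block and 0.143 without).

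*Ccr2* and *Ccr3* did not pass in either fit. *Ccr2* was at 211, 83.3 and 98.2 CPM in control and at 258, 38.7 and 99.2 CPM in NaCl, with mouse 1 highest in both groups. *Ccr3*, the eotaxin receptor, had 28.1 ± 3.60 CPM without and 21.0 ± 3.60 CPM with NaCl (adjusted p = 0.367 in edgeR's test and 0.0805 with the block). The median log2 fold change of the 9 genes was -0.31, against -0.0065 over all genes.

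**Figure D4:**
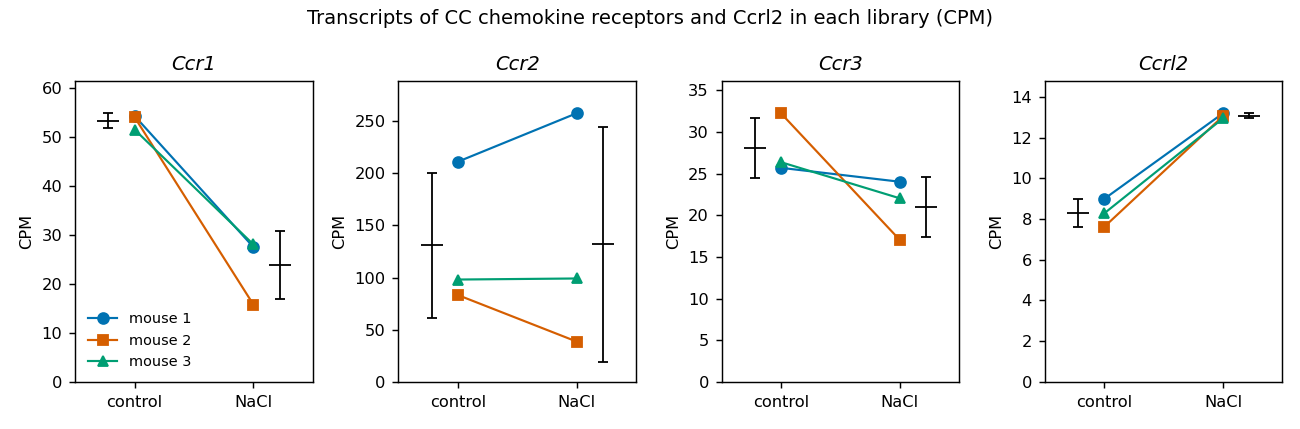
Level of 3 CC chemokine receptor genes and of Ccrl2 in CPM (vertical axes, linear, starting at 0) in control and NaCl libraries, with a line for each mouse and black bars giving mean ± SD of 3 libraries. Ccr1 was lower and Ccrl2 higher in NaCl in every mouse without overlap of the groups, whereas Ccr2 was spread widely between mice. Groups without overlap, in either direction, were seen in 19.0% of all genes tested.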

How the data were processed

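RNA-seq of 6 BMDM libraries was analysed. The single-end reads, 75 bases long, were trimmed by the authors with fastp 0.20.0 and counted per gene by STAR 2.7.10b without strand. The authors deposited raw counts and a normalized signal, which is the count divided by a DESeq2 size factor. The raw counts were used, and symbols came from the normalized table. The sources name the build mm10 beside GENCODE vM32, so positions and sequences here come from GENCODE M21 on GRCm38, matched by gene identifier for all 8 ligands.

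A gene entered the tests when its counts over all libraries summed to 10 or more. The tool was edgeR 4.0.16 (TMM, glmQLFit, glmQLFTest, group as the only term) at an adjusted p of 0.05. The study used DESeq2, which is an alternative here, and its methods name no mouse term. Standard errors were derived from the F statistic. The same mouse numbers stand in both groups, so the mouse was taken to pair the samples and the fit with a replicate block is given beside it. Deviations from the group mean correlated across genes at 0.426, 0.151 and 0.217 for same-numbered libraries, and at -0.35 to 0.124 for the others. Centring within groups lowers the latter, so these values alone do not establish the pairing. Alternatives were DESeq2 1.42.0, limma-voom (limma 3.58.1), other scalings and filters, thinning and leaving out libraries. The fits were tested on simulated data. Named genes were the 8 ligands, members of related lists where called in edgeR with or without the block or needed as checks, and the 2 most correlated genes per ligand. *Ccr2* and *Ccr3*, receptors of these ligands, and the 6 other CC ligands tested fall outside this rule and were named after their values were seen. The members and lists were chosen with earlier results of these data known. R 4.3.3 and Python 3.11.15 were used. Protein and promoter sequences were not used here, and 1 coding sequence and 1 gene of the lists are not reported here.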

Additional observations from a re-analysis of the deposited data

How the results depend on the processing

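The direction of *Ccl7* was lower in NaCl under all 22 alternatives, with log2 fold changes from -1.81 to -0.82, while its call depended on the model. The number of ligands called lower was 0 in edgeR without the block and 1 (*Ccl7*) with the mouse as a replicate block. It was 1 in DESeq2 with or without the block. With the block it was 1 under median-ratio size factors, total count scaling or thinning to 4088065 reads. It was also 1 in limma-voom with the block, which was chosen after the data were seen. Without the block it stayed 0 under these scalings, thinning, filterByExpr and limma-voom. With a minimum total count of 1, also without the block, it was 1. Leaving out 1 library without the block gave from 0 to 1, the 1 being without NaCl replicate 1 (*Ccl7*, adjusted p = 0.0239 in edgeR), and leaving out 1 mouse with the block gave from 1 to 3, the 3 being *Ccl7*, *Ccl3* (adjusted p = 0.0182 in edgeR) and *Ccl6* (0.0379) without mouse 3, where 3.94% of all genes were called lower. The shares of all genes were 2.79% without mouse 1, where *Ccl3* had an adjusted p of 0.423 and *Ccl6* of 0.135, and 4.46% without mouse 2, where these were 0.0918 and 0.394, all in edgeR. No ligand was called higher in any of these fits. The blocked fits that left out 1 mouse, and the fit with a minimum total count of 1, took the variation of each gene from a trend over all genes. The blocked edgeR fit of all libraries did so in large part. The calls of all these fits therefore do not measure the spread of a gene between mice. The sign of *Ccl2* changed in 12 of 22 alternatives and that of *Ccl5* in 9, none with a call. *Ccl12* was not tested under 1 alternative, filterByExpr, and got no adjusted p in DESeq2 with or without the block, so it could not be called there. Over the 5 lists of related genes, with 48 tested, 0 were called higher and 1 lower, where 0.478% and 0.176% of all genes were. DESeq2 called 4 and 3 (1.54% and 0.975% of all genes), and edgeR with the replicate block 8 and 3 (4.6% and 4.3%). DESeq2 with the block called 6 and 3 (2.84% and 2.23%). With 1 library left out in turn, 0 to 2 genes were called higher and 0 to 1 lower, against 0.0518% to 0.795% and 0% to 0.297% of all genes. With 1 mouse left out under the block these counts were 6 to 8 and 3 to 4, against 3.14% to 5.11% and 2.79% to 4.46%. For these lists, the fits that left out a library or a mouse were added after the data were seen. The 1 called lower was *Ccr1*, whose log2 fold change ran from -1.36 to -0.92 over 22 alternatives and was past the threshold in 15. The cause of these differences was not tested. The reads of *Ccl5* and *Ccl12*, at most 20 and 11 per library, limit what could be detected for them.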

Other observations

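Genes that act upstream of CC chemokine transcription were mixed. Of 13 genes of the NF-κB pathway, 0 passed in edgeR's test, where 0.654% of all genes tested did. At an unadjusted p-value under 0.05 were 2 of them, and 12.6% of all genes. With the replicate block, in which 4.6% of all genes were called higher and 4.3% lower, *Nfkbiz*, a nuclear cofactor of NF-κB, rose from 11.3 ± 4.48 to 23.2 ± 1.99 CPM (adjusted p = 9.7e-05 in edgeR with the block and 0.115 without, and 0.00817 in DESeq2 without it), and *Ikbkg*, the regulatory subunit of the IκB kinase, fell from 149 ± 16.6 to 93.5 ± 8.01 CPM (0.000602, 0.0659 and 0.00279). The median log2 fold change of the 13 was 0.07, against -0.0065 over all genes.

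Of 15 early inflammatory and AP-1 genes tested, 0 passed in edgeR's test, where 0.654% of all genes did. At an unadjusted p-value under 0.05 were 5 of them, and 12.6% of all genes. With the block 4 rose, namely *Tnf*, *Ptgs2*, *Fos* and *Junb*, and 1, *Egr1*, fell, against 4.6% and 4.3% of all genes. Of these 5, DESeq2 without the block called *Ptgs2* as higher and *Egr1* as lower, where 1.54% and 0.975% of all genes were. *Tnf* was at 9.66, 8.88 and 13.6 CPM in control and at 15.2, 12.7 and 29.5 CPM in NaCl. It was higher in 3 of 3 mice, where 43.5% of all genes were higher or lower in 3 of 3. Its adjusted p was 0.0028 in edgeR with the block, 0.344 in edgeR without it and 0.19 in DESeq2 without it. A link between *Tnf* and the ligands was not tested. Of 5 genes that regulate the decay of AU-rich transcripts, *Zfp36*, which encodes tristetraprolin, had 134 ± 27.9 CPM in control against 249 ± 38.8 CPM in NaCl, and *Zfp36l2* at 282 ± 54.7 and 452 ± 83.3 CPM. In edgeR both passed as higher with the block (adjusted p = 0.000105 and 0.000229), where 4.6% of all genes did. Neither passed without it (0.0613 and 0.162), where 0.478% did. DESeq2 without the block called both (0.000857 and 0.0346), against 1.54% of all genes.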
